A study of Schizosaccharomyces pombe with 6 samples.

Results

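The genes described here serve iron uptake in the fission yeast Schizosaccharomyces pombe, a unicellular fungus widely used to study chromosomes and the nucleus. They are 9 genes chosen by name and identifier, out of 7269 counted features: frp1, frp2, fio1, fip1, str1, sib1 and pcl1, which reduce, import, bind or store iron, and fep1 and php4, which encode repressors. All 9 had enough reads to be tested. The groups were 3 cultures of wt cells and 3 of cells that carry the sad1.2 allele and lack csi1 (sad1.2 csi1Δ), called the mutant here. All were haploid cells in asynchronous, exponential growth in rich medium at 30 °C, harvested from 30 mL at an optical density of 0.5, and the labels call the 3 cultures of each genotype biological replicates. Neither alteration was measured alone in the samples analysed here, so the effects of sad1.2 and of the csi1 deletion cannot be told apart. Per the series' design, RNA-seq asked how loss of centromere clustering affects gene expression in growing cells; centromere positions were not analysed here.

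Iron reaches a fission yeast cell by a reductive and a siderophore route. In the reductive route, surface reductases convert ferric to ferrous iron, which the multicopper oxidase Fio1 and the permease Fip1 carry across the plasma membrane; in the siderophore route, iron bound to small chelators such as ferrichrome enters through transporters such as Str1. The GATA-type repressor Fep1 keeps these genes low when iron is plentiful and also represses php4, whereas Php4, a subunit that joins the CCAAT-binding complex when iron is scarce, represses genes that use or store iron, among them pcl1 and fep1.

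Total counts ran from 19074531 to 19951875 per library. The deleted gene csi1 was lower in each mutant library, at 7.60 ± 3.82 against 64.3 ± 0.834 CPM (SD, n = 3 each). CPM is a count scaled to a fixed library total. The gene sad1 was higher in each mutant library, at 153 ± 6.81 against 81.8 ± 1.66 CPM (edgeR adjusted p = 0.00639). The cause of its rise was not tested. Of the markers of growth, tdh1, eno101 and act1 were abundant. The marker cdc2 was at 88.6 ± 5.98 CPM in wt and 75.2 ± 1.42 CPM in the mutant (SD, n = 3 each). But adh1 was listed at 0 to 4 counts, so a listed level near 0 is not taken here as absence of a transcript. All 4 tested growth markers were lower in the mutant, with a median log2 fold change of −0.20, and 0 had an edgeR adjusted p under 0.05. For 2 of them, tdh1 and cdc2, the genotypes did not overlap. Separation with the mutant lower held for 13.8% of all tested features. The 6 markers of meiosis and sporulation summed to between 14.0 and 23.0 CPM in wt and between 34.2 and 64.3 CPM in the mutant, with spo6 and meu14 at 0 in all libraries. The P mating markers summed to 8.47 to 9.72 CPM in wt and 10.7 to 17.7 CPM in the mutant, and the M markers to 53.7 to 85.9 and 80.9 to 98.2 CPM, with mfm3 at 0. The M sums were mostly mam2, with means of 48.9 CPM in wt and 52.4 CPM in the mutant. In edgeR, adjusted p was under 0.05 for the meiotic marker mek1 (0.04995) and the M marker mfm1 (0.0398), both higher in the mutant. The share of such features among all 4941 tested was 2.29%. Every mutant library was above every wt library for 4 of 4 tested meiotic, 1 of 2 P and 1 of 3 tested M markers. Among all tested features this held for 16.7%. The part of these markers in the results below was not tested. In both genotypes 1 library stood apart from the other 2. Over 4333 features with a mean of at least 5 CPM, the deviations of wt replicate 2 and mutant replicate 3 from the means of their genotypes correlated with r = 0.73 across features, which are not independent replicates. Results are therefore given with and without these libraries. Since they were chosen for their deviation in these data, leaving them out lowers the spread within genotypes by construction. Intervals narrow and calls increase for that reason, so values without them describe the remaining libraries only.

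The data on the 9 genes fell into 3 patterns. The gene frp2 was higher in every mutant library. The genes fio1, fip1, frp1 and str1 differed up to several-fold between cultures of the same genotype and overlapped between genotypes. The levels of pcl1 and fep1 were similar in all 6 libraries, and sib1 and php4 lay between these patterns. At an adjusted p under 0.05 in edgeR, 1 of the 9 genes was called higher in the mutant and 0 lower, against 2.29% and 0.121% of all 4941 tested features. At an unadjusted p under 0.05 the counts were 1 and 0, against 14.5% and 8.12% of all features. By DESeq2 they were 1 and 0, where 7.35% and 3.08% of all features passed, and by limma voom 0 and 0, where 1.6% and 0.0607% passed.

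**Figure D1:**
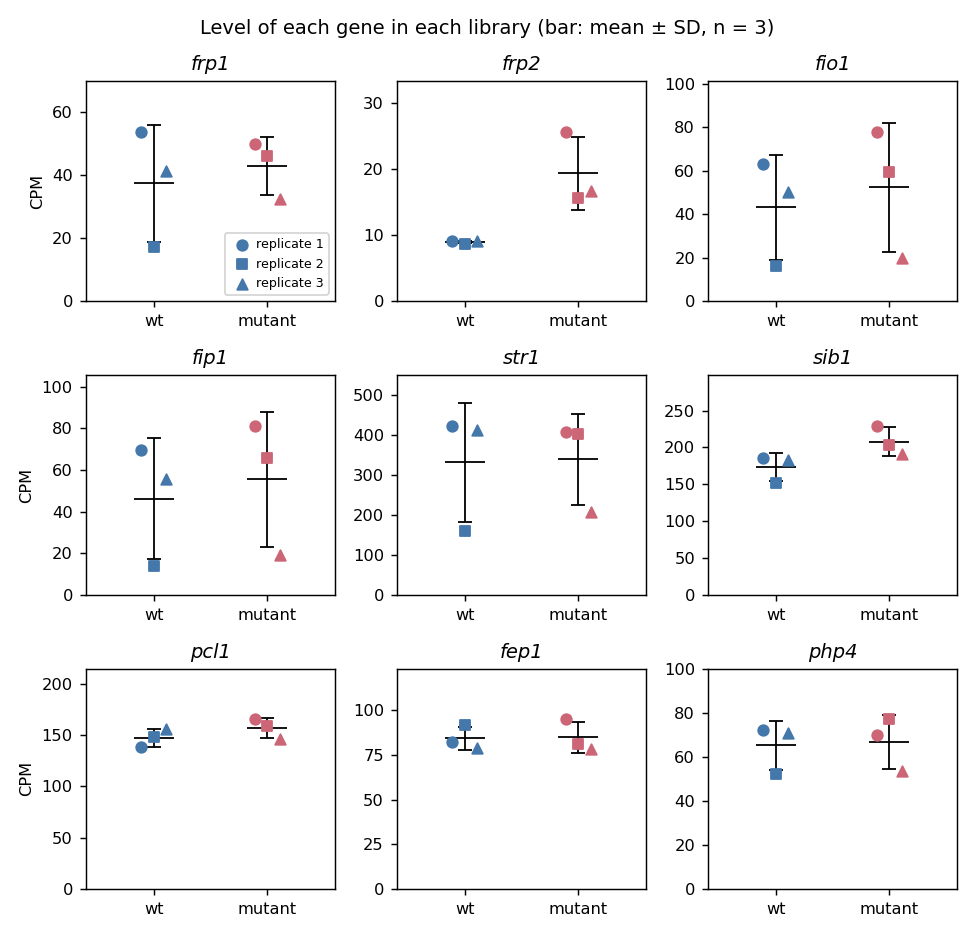
Level of each of the 9 genes in CPM (vertical axes, starting at 0) in the 3 wt and 3 mutant libraries; symbols mark the replicate number, and bars give the mean ± SD (n = 3). For frp2 all mutant libraries, from 15.7 to 25.7 CPM, lie above all wt libraries, whereas fio1 and fip1 are lowest in wt replicate 2 and mutant replicate 3.

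The surface reductases come first. The gene frp1 (SPBC1683.09c.1, chromosome II) encodes the ferric-chelate reductase of the reductive route. Its levels were 53.8, 17.3 and 41.2 CPM in wt replicates 1, 2 and 3 and 49.9, 46.2 and 32.5 CPM in the mutant. The groups overlapped, the lowest values being wt replicate 2 and mutant replicate 3. Mutant over wt was 1.14-fold with a 95% interval from 0.610 to 2.15, or 0.19 ± 0.384 (SE) on the log2 scale (edgeR adjusted p = 0.805).

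The gene frp2 (SPBC947.05c.1, chromosome II) is annotated as a ferric reductase too. Reads assigned to it numbered 180, 153 and 176 in the wt libraries and 576, 313 and 328 in the mutant ones, or 9.08, 8.75 and 9.15 CPM against 25.7, 15.7 and 16.8 CPM. The wt cultures were nearly equal and every mutant culture lay above them, with mutant replicate 1 the highest. The mean rose from 8.99 ± 0.215 to 19.4 ± 5.49 CPM (SD, n = 3). This is 2.16-fold with a 95% interval from 1.53 to 3.04, or 1.11 ± 0.210 (SE) on the log2 scale, at an adjusted p of 0.0487 in edgeR. The call sits at the threshold. It was kept in 3 of 16 alternative analyses and lost in 13, in each of which the log2 fold change stayed between 0.83 and 1.25. Among those that lost it were the omissions of any 1 library, with values from 0.83 without mutant replicate 1 to 1.24 without mutant replicate 2 and adjusted p from 0.0549 to 0.216. Without wt replicate 2 and mutant replicate 3 together it was 1.18 (SE 0.237, adjusted p = 0.0196), where 14.3% of all features were called higher. In the authors' deposited table frp2 has a log2 fold change of 0.84 and an adjusted p of 0.000172, and 6.3% of the features with an adjusted p in that table are called higher.

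A background for weakly expressed genes was read from 287 tested protein-coding genes under 4 CPM per kb in wt. Their median gain over the wt mean was 0.474, 0.328 and 0.167 CPM per kb in mutant replicates 1, 2 and 3. A gene under the read filter in wt could enter this set only through high mutant libraries. Choosing genes by a low wt level thus favours a gain, so a rise of the class cannot be read from it. The subtraction below carries the same limit. Per length, frp2 stood at 5.30 ± 0.127 CPM per kb in wt and 11.4 ± 3.24 CPM per kb in the mutant (SD, n = 3). With those gains subtracted, frp2 differed by 1.10 ± 0.218 (SE) on the log2 scale, at an adjusted p of 0.0629 in edgeR. A long non-coding RNA, SPNCRNA.4823, is annotated opposite frp2 over its whole length and is not a feature of the count files. The strand setting of the counting is not given, so reads of the reductase gene and of an antisense transcript cannot be told apart.

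The oxidase and permease genes fio1 (SPAC1F7.08.1) and fip1 (SPAC1F7.07c.1) are divergent neighbours on chromosome I, and their products act as one uptake complex. The gene fio1 was at 63.1, 16.4 and 50.4 CPM in wt and at 78.0, 59.6 and 19.7 CPM in the mutant. The gene fip1 was at 69.5, 13.9 and 55.5 CPM in wt and at 81.2, 65.9 and 19.2 CPM in the mutant. Both were lowest in wt replicate 2 and mutant replicate 3, and highest in mutant replicate 1.

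The difference between cultures exceeded the difference between genotypes. In wt the highest library was 3.83-fold above the lowest for fio1 and 4.98-fold for fip1, and in the mutant the ratios were 3.94 and 4.21. Against this, the log2 fold change of mutant over wt was 0.27 for fio1 (95% interval of the ratio 0.457 to 3.20, edgeR adjusted p = 0.827) and 0.26 for fip1 (0.404 to 3.54, adjusted p = 0.856). Among the 4333 features with a mean of at least 5 CPM, the range of fip1 between replicates ranked 21 in wt and 12 in the mutant, and that of fio1 ranked 27 and 16. Without wt replicate 2 and mutant replicate 3 the interval of mutant over wt ran from 0.919 to 1.59 for fio1 and from 0.928 to 1.49 for fip1 (edgeR adjusted p of 0.256 and 0.265). Both genes were lowest in these libraries, so narrower intervals followed from leaving them out. The direction of both turned when 1 library was left out, with log2 fold changes down to −0.15 and −0.18 and up to 0.66 and 0.67.

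The proportion of the pair varied less than the level. On the scale of CPM per kb, fip1 was 1.74, 1.34 and 1.74 times fio1 in wt and 1.65, 1.75 and 1.54 times in the mutant. The lowest ratios were again in wt replicate 2 and mutant replicate 3, where fip1 was further below its other libraries than fio1 was.

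**Figure D2:**
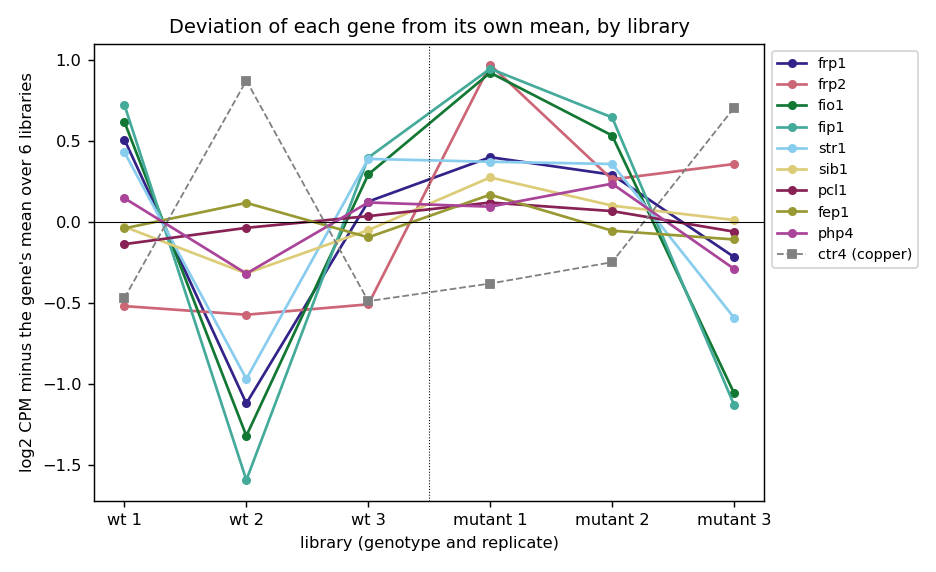
Log2 CPM of each of the 9 genes minus the mean of that gene over the 6 libraries (vertical axis) in each library (horizontal axis; the dotted line parts the genotypes, and lines join the points of a gene as a guide to the eye). In wt replicate 2 and mutant replicate 3, fip1 lies 1.59 and 1.13 below its mean. The copper transporter gene ctr4, chosen after its values were seen and drawn dashed in grey, lies 0.87 and 0.71 above.

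On the siderophore route, str1 (SPBC4F6.09.1, chromosome II) encodes a transporter of iron-loaded siderophores and had the highest mean of the 9 genes per length. Its levels were 423, 160 and 411 CPM in wt and 406, 403 and 209 CPM in the mutant. The genotypes overlapped, since wt replicate 2 and mutant replicate 3 were low and the other 4 libraries lay close together. Mutant over wt was 1.02-fold with a 95% interval from 0.529 to 1.98, or 0.03 ± 0.403 (SE) on the log2 scale (edgeR adjusted p = 0.978). Without both low libraries the interval ran from 0.846 to 1.11 (log2 −0.05, adjusted p = 0.694). With 24.3% of the CPM of the 9 genes in wt replicate 2 and 27.2% in mutant replicate 3, str1 took a smaller share there than in the other libraries, where it held 33.8% to 38.9%.

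The gene sib1 (SPAC23G3.02c.1, chromosome I) encodes the peptide synthetase that makes ferrichrome. It was at 186, 152 and 183 CPM in wt and at 230, 203 and 191 CPM in the mutant. Every mutant library was above every wt library, which held for 2 of the 9 genes (frp2 and sib1) and for 16.7% of all tested features. Mutant below wt held for 0 of the 9 and for 13.8%. The difference for sib1 was 0.26 ± 0.112 (SE) on the log2 scale (edgeR adjusted p = 0.226), with a 95% interval of the ratio from 0.998 to 1.44. The log2 value was positive in all 16 alternatives without passing in any (adjusted p from 0.0728 to 0.617). Its neighbour sib2, which encodes the ornithine monooxygenase that acts before Sib1, is read from the opposite strand and was at 158 ± 33.3 CPM in wt and 180 ± 9.53 CPM in the mutant (log2 0.18, adjusted p = 0.545).

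The gene pcl1 (SPBC1683.10c.1, chromosome II), next to frp1 on the same strand, encodes a transporter that moves iron into the vacuole. Its levels were 138, 148 and 156 CPM in wt and 165, 159 and 146 CPM in the mutant. The groups overlapped in a narrow band, and wt replicate 2 and mutant replicate 3 were neither the lowest nor the highest of the 6. Mutant over wt was 1.06-fold with a 95% interval from 0.925 to 1.22 (edgeR adjusted p = 0.591). In wt the highest library was 1.13-fold above the lowest for pcl1, against 3.09-fold for its neighbour frp1.

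The repressor genes showed no call. The gene fep1 (SPAC23E2.01.1, chromosome I) was at 82.2, 91.6 and 79.1 CPM in wt and at 94.9, 81.3 and 78.3 CPM in the mutant. Mutant over wt was 1.01-fold, with a 95% interval from −0.24 to 0.26 on the log2 scale (edgeR adjusted p = 0.969). The groups overlapped; wt replicate 2 was the highest wt library, and mutant replicate 3 the lowest of all 6. The gene php4 (SPBC16E9.01c.1, chromosome II) was at 72.4, 52.4 and 71.1 CPM in wt and at 69.8, 77.1 and 53.5 CPM in the mutant, a 1.02-fold difference with a 95% interval from 0.766 to 1.36 (adjusted p = 0.941). Here wt replicate 2 and mutant replicate 3 were again the lowest, at 0.730 and 0.728 times the mean of the other 2 libraries of their genotype. For fip1 the same ratios were 0.222 and 0.261, for fio1 0.289 and 0.287, for str1 0.384 and 0.515 and for frp1 0.365 and 0.676.

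**Figure D3:**
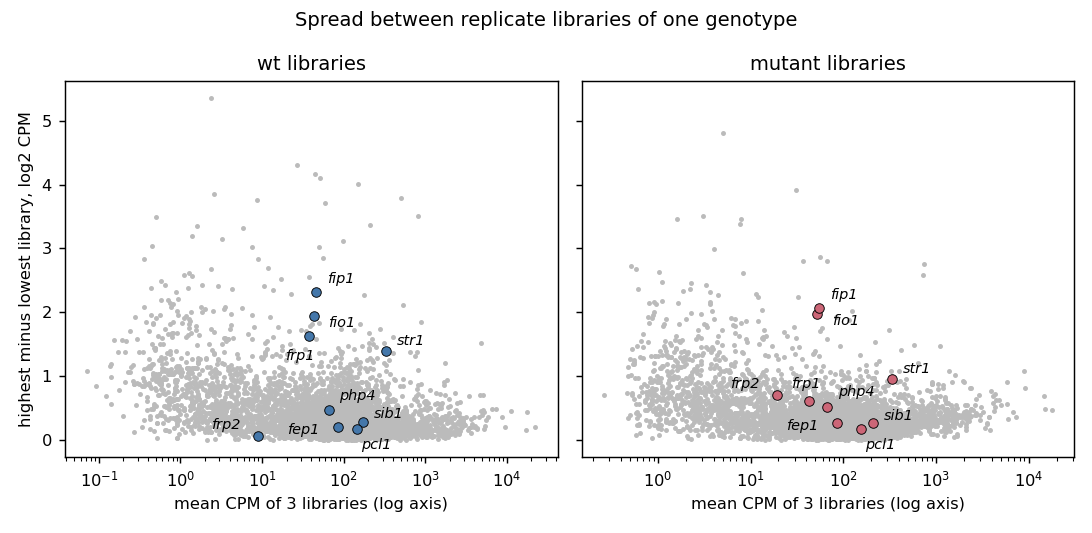
Highest minus lowest replicate in log2 CPM (vertical axis) against the mean CPM of the genotype (horizontal log axis) for all tested features (grey) and the 9 genes (coloured), in wt and in the mutant. In both panels fip1 and fio1 lie above most features of similar level, while pcl1 and fep1 lie among the bulk and frp2 is close to 0 in wt.

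In 6 of the 9 genes (frp1, fio1, fip1, str1, sib1 and php4) wt replicate 2 was the lowest wt library and mutant replicate 3 the lowest mutant library. This held for 28.2% of all 4941 tested features. Over the 4333 features with a mean of at least 5 CPM, 2.35% were at less than 0.5 times the mean of the other wt libraries in wt replicate 2, and 1.29% were so in mutant replicate 3. In wt replicate 2, fip1, fio1, frp1 and str1 were below that limit, and in mutant replicate 3 fip1 and fio1 were.

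Genes most like each member were sought by the root-mean-square difference of gene-centred log2 CPM over the 6 libraries. For fip1 the closest of 4332 candidates was fio1 (0.138), although fio1 itself was closer to say1 (0.101). For str1 it was pho1, which encodes the phosphate-repressed acid phosphatase (0.0734), and then the MADS-box factor gene mbx1 (0.0953). For frp1 the closest were SPAC17A2.11 (0.0878) and gti1 (0.119). For frp2 they were gdh2, which encodes a glutamate dehydrogenase (0.0854), glm1 (0.102) and the formin gene fus1 (0.131). The gene gdh2 was at 62.8, 66.0 and 61.4 CPM in wt and 164, 108 and 127 CPM in the mutant. Like glm1 and fus1, it was picked for its likeness to frp2 over these same libraries, so a like separation of the genotypes followed from the choice. Candidates needed a mean of at least 5 CPM over both genotypes. The gene glm1, at 3.87 ± 0.462 CPM in wt and 7.99 ± 1.93 CPM in the mutant (SD, n = 3), met this only through its mutant libraries. For the remaining genes the closest were vps1301 to sib1 (0.0294), ero12 to pcl1 (0.0267), fta7 to fep1 (0.0369) and the non-coding RNA SPNCRNA.1141 to php4 (0.0465).

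Levels were ordered per length, as CPM per kb of annotated transcript. In wt the means descended from str1 (111 ± 49.6) through pcl1 (83.3 ± 4.99), php4 (43.0 ± 7.37), fip1 (26.2 ± 16.3), fep1 (24.1 ± 1.87), frp1 (18.4 ± 9.09), fio1 (15.5 ± 8.62) and sib1 (11.6 ± 1.25) to frp2 (5.30 ± 0.127; SD, n = 3 each). The order of the means in the mutant was the same, from str1 at 113 ± 37.8 to frp2 at 11.4 ± 3.24 CPM per kb. In wt the neighbours whose libraries did not overlap were pcl1 and php4, and sib1 and frp2; the other neighbours overlapped, str1 with pcl1 because of wt replicate 2 at 53.6 CPM per kb.

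**Figure D4:**
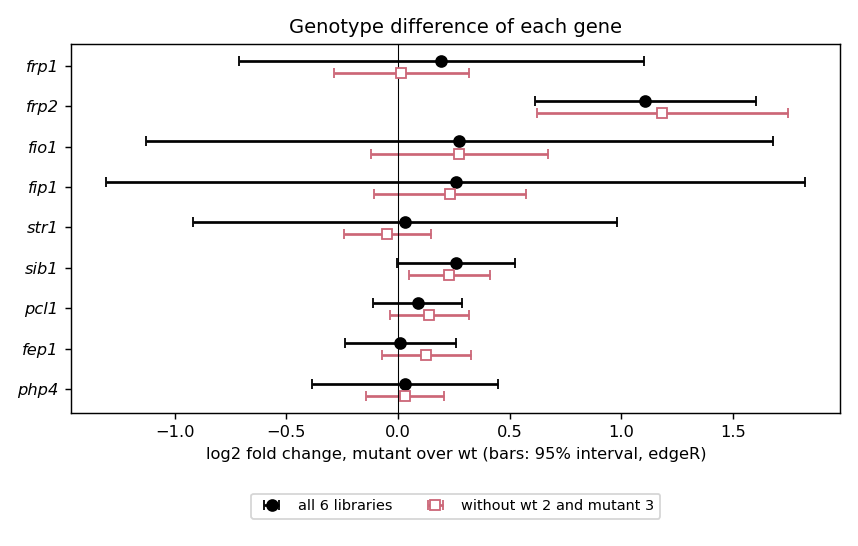
Log2 fold change of each gene, mutant over wt (horizontal axis), with its 95% interval from edgeR, for all 6 libraries (black circles) and without wt replicate 2 and mutant replicate 3 (open squares). The interval of frp2 lies above 0 in both, and the intervals of fio1, fip1, frp1 and str1 narrow when both libraries are left out.

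The wider iron economy was read from 6 lists of 59 genes. Of these, 52 were tested, 5 had too few assigned reads and 2 symbols matched no feature. Among the untested, rip1, lys2 and hem14 were listed at 0 counts in all 6 libraries. As for adh1, this is not taken as absence of a transcript. In edgeR 0 were called higher and 0 lower, where 2.29% and 0.121% of all features were. At an unadjusted p under 0.05, 2 were higher and 0 lower, against 14.5% and 8.12% of all features. By DESeq2 the calls were 1 and 0 (7.35% and 3.08% of all features), and by limma voom 0 and 0 (1.6% and 0.0607%). The median log2 fold change was −0.03, beside 0.19 for the 9 genes and 0.0043 for all tested features. The median of the 9 turned to −0.11 without wt replicate 2 and to −0.02 without mutant replicate 1, with 4 of the 9 positive in each case. Without wt replicate 2 and mutant replicate 3, 4 were called higher (shu1, str3, nar1 and ctr5) and 2 lower (tup12 and hem1), where 14.3% and 6.17% of all features were called.

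Of the other genes of iron starvation 0 were called, and the values of all 5 were positive, with a median of 0.18 on the log2 scale. The haem uptake gene shu1 was read 6, 2 and 4 times in the wt libraries and 382, 85 and 30 times in the mutant ones. Its wt counts lie under the filter's minimum count of 10, so it was tested only because its mutant libraries were high. The separation and calls that follow depend on that entry, and the size of the difference on wt levels near 0. With the filter of 5 CPM in 3 libraries shu1 was not tested. Every mutant library was above every wt library, and the highest mutant library was 10.5-fold above the lowest. The means were 0.208 ± 0.0941 and 7.61 ± 8.28 CPM (SD, n = 3), and the difference was 5.14 ± 1.07 (SE) on the log2 scale, at an adjusted p of 0.0597 in edgeR. DESeq2 called it (log2 5.17, adjusted p = 3.69e-07), as did edgeR without mutant replicate 3 (5.61, adjusted p = 0.0274, where 2.91% of all features were called higher), and limma voom did not (4.50, adjusted p = 0.129). Without mutant replicate 1 the edgeR value for shu1 was 3.72 (adjusted p = 0.102), and omitting any 1 wt library or mutant replicate 2 gave 4.86 to 5.49 (adjusted p from 0.0911 to 0.240). The authors' deposited table gives shu1 a log2 fold change of 0.86 with an adjusted p of 0.000217. How that table scaled its log2 fold changes is not given, so 0.86 and 5.14 may not be like measures. The siderophore transporter gene str3 was at 8.74 ± 2.48 CPM in wt and 16.9 ± 7.73 CPM in the mutant (log2 0.95, SE 0.397, edgeR adjusted p = 0.217). Without both libraries that stood apart str3 was at 1.06 (edgeR adjusted p = 0.00508), where 14.3% of all features were called higher. The related transporter gene str2 was at 60.5 ± 2.96 and 66.2 ± 2.57 CPM (log2 0.13, adjusted p = 0.404).

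The partners of the repressors gave no call. On the log2 scale 2 of the 8 were positive and 6 negative, and the median was −0.12. The co-repressor genes tup12 and tup11 had log2 fold changes of −0.18 and 0.22, and grx4, whose monothiol glutaredoxin binds both repressors, one of −0.15 (edgeR adjusted p of 0.352, 0.385 and 0.409). Without both libraries that stood apart, tup12 passed (−0.26, edgeR adjusted p = 0.0374), where 6.17% of all features were called lower.

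Genes for iron-using enzymes and for making iron cofactors also gave no call. Of 13 tested genes for iron-using enzymes, 5 had positive and 8 negative values, with a median of −0.07. Smallest in adjusted p were the catalase gene ctt1 (log2 0.33), the dihydroxyacid dehydratase gene ilv3 (−0.24) and the aconitase gene aco1 (0.27), with edgeR adjusted p of 0.238, 0.277 and 0.297. Of 14 tested genes of iron-sulfur cluster assembly, 7 had positive and 7 negative values with a median of 0.00024, and the leading ones were isd11 (−0.26), etp1 (−0.16) and isu1 (0.12), at adjusted p of 0.252, 0.260 and 0.409. Of 6 tested genes of haem synthesis, 1 had a positive and 5 negative values, with a median of −0.12. Here hem1, the gene of the first step, had a log2 fold change of −0.34, hem13 one of −0.23 and hem3 one of −0.13 (adjusted p of 0.222, 0.230 and 0.493). Without both libraries that stood apart, hem1 passed at −0.34 (edgeR adjusted p = 0.0470), where 6.17% of all features were called lower.

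Copper supply bears on iron uptake because Fio1 carries copper. Of 6 genes, 3 had positive and 3 negative values, with a median of 0.01. The gene ctr5 was at 0.14, cuf1 at −0.10 and atx1 at −0.07 on the log2 scale (edgeR adjusted p of 0.672, 0.695 and 0.793). The copper transporter gene ctr4 was singled out after its values were seen. It was at 2.55 times the mean of the other wt libraries in wt replicate 2 and 2.02 times that of the other mutant libraries in mutant replicate 3. In these libraries fio1 and fip1 were lowest. The other copper genes ran from 0.79 (cuf1) to 1.51 (ctr5) in wt replicate 2 and from 0.75 (atx1) to 1.01 (ctr5) in mutant replicate 3. The gene fra2 of the repressor partners, also chosen after its values were seen, was at 2.36 and 1.84 times. The other partners ran from 0.60 (php3) to 1.09 (grx4) and from 0.65 (php3) to 1.23 (tup12). The share of all features raised as much as ctr4 or fra2 in wt replicate 2 and mutant replicate 3 was not counted. A link between copper supply and the iron genes was not tested. Since levels come from whole cultures, a change in the share of cells that express a gene and a change in RNA per cell cannot be told apart for any gene here.

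**Figure D5:**
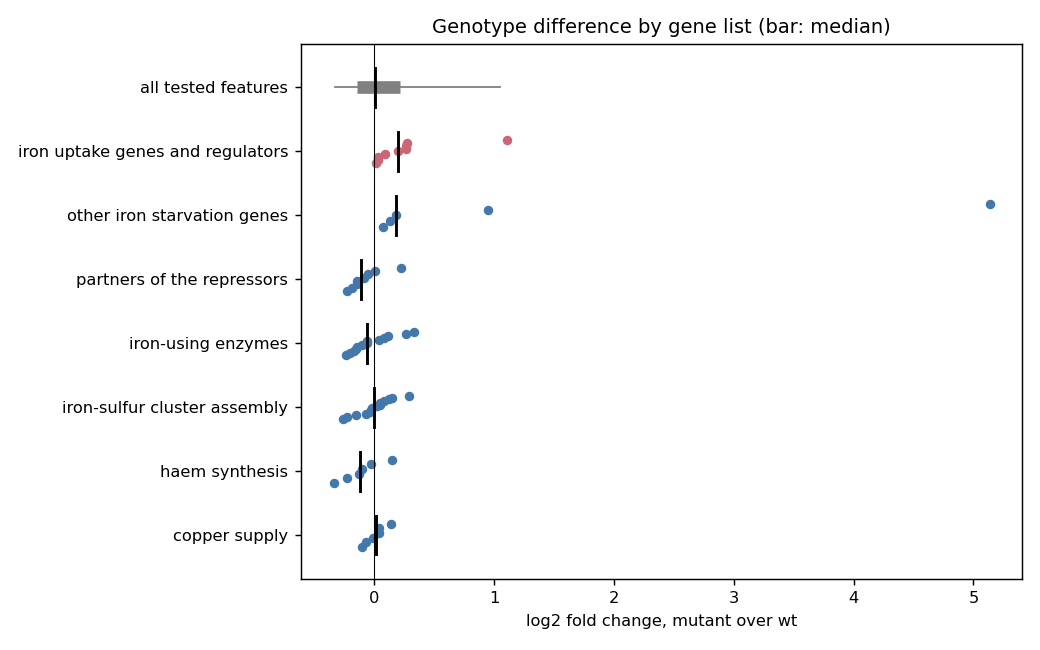
Log2 fold change, mutant over wt (horizontal axis), of each tested gene in the 9 iron uptake genes and regulators (red) and in 6 related lists (blue); black bars give medians. For all tested features the thick bar spans the quartiles (−0.14 to 0.21) and the thin line the 5th to 95th percentiles (−0.33 to 1.05). The points at 1.11 and 5.14 are frp2 and shu1.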

How the data were processed

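RNA from 3 wt and 3 sad1.2 csi1Δ cultures was analysed, each library made from 5 µg of total RNA by oligo-dT selection and sequenced paired-end, per the labels' protocols. Every test used the unnormalized counts that the authors deposited, 1 value per transcript identifier and library. The submitters' processing notes name the tools HISAT2, HTSeq and DESeq2 and the build ASM294v2. Tool versions, the annotation release, the strand setting and the handling of reads that map to several places: not given in the sources used here. A table of the authors' own comparison, also deposited, gives log2 fold changes with a standard error score, a p-value before and after adjustment and a mean normalized signal; it is quoted by name. Its sign was read from csi1, which is negative there, as mutant over wt. The scaling of its log2 fold changes is not given. It lists csi1 at −1.83, against −3.08 in edgeR, and sad1 at 0.84, against 0.90. The sizes of its values are therefore not compared with those of edgeR. Another 18 columns, of normalized values per library, were left aside.

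Names, lengths and neighbours came from the annotation of ASM294v3, so no coordinates or sequences are given. Of 7269 features, 6848 matched. Among the 9 genes, all but frp1 and fip1 overlap a non-coding RNA annotated on the opposite strand.

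Genotypes were compared in R 4.3.3 with edgeR 4.0.16, by its quasi-likelihood test (TMM, genotype as the only term, robust estimation, filterByExpr with minimum count 10 and total 15) on 4941 features. Benjamini-Hochberg adjustment covered all of these, and called means an adjusted p under 0.05. Standard errors and 95% intervals derive from the test statistic. Levels are CPM over TMM-scaled library sizes. Alternatives were other scalings and filters, a fit of coding genes alone, a replicate block, left-out libraries, a subtracted background, DESeq2 1.42.0 and limma 3.58.1 voom. No pair of libraries of a genotype was a duplicate within sampling noise (chi-square over its degrees of freedom at least 9.68). With 3 against 3 libraries an exact permutation p cannot go under 0.1. The labels do not say more of how the replicate cultures were obtained, so p-values weigh the genotype difference against the spread between these cultures only. In edgeR that spread was moderated over all tested features, so it is not that of a single gene.

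The members, lists and the omission of wt replicate 2 and mutant replicate 3 were chosen with earlier results of these data known. Named are all 9 members, csi1 and sad1, and called list genes or else the 3 of smallest adjusted p per list. Up to 3 genes most like each member, among those of at least 5 CPM, are named too. Other genes are said to be chosen later, are neighbours, or are markers.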

Additional observations from a re-analysis of the deposited data

How the results depend on the processing

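Of the 9 genes, sib1 and pcl1 kept a positive log2 fold change in all 16 alternatives and passed in 0 (0.16 to 0.39 and 0.03 to 0.22). The value of frp2 was positive in all 16, and its call, the 1 member called, went to 0 members in 13. It was 1.09 with DESeq2 size factors, 1.25 with library size alone, 1.13 with the filter of 5 CPM in 3 libraries, 1.14 with protein-coding genes only, 1.08 in limma voom and 1.10 with the background subtracted. Leaving out 1 library at a time gave 0.83 to 1.24 and called 0 members throughout. The direction of other members turned: fep1 was at −0.00296 with DESeq2 size factors and −0.0027 in DESeq2, and str1 at −0.0473 without wt replicate 2 and mutant replicate 3. Leaving out 1 library gave −0.16 to 0.55 for frp1, −0.15 to 0.66 for fio1, −0.18 to 0.67 for fip1, −0.31 to 0.28 for str1, −0.0943 to 0.0637 for fep1 and −0.11 to 0.16 for php4. Library size alone moved the median of all features to 0.13 (log2) from 0.0043. The causes were not tested.

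Over all features 113 were called higher and 6 lower. The counts were 113 and 3 with library size alone, 73 and 3 with the stricter filter, 34 and 2 with protein-coding genes only, 363 and 152 in DESeq2, 79 and 3 in limma voom and 73 and 4 with the background subtracted. Omitting 1 library gave 0 to 146 higher and 0 to 5 lower, with 0 higher when replicate 1 or 3 of wt, or replicate 2 of the mutant, was absent. Omitting wt replicate 2 and mutant replicate 3 together gave 716 and 309. Of the related iron genes, 4 were then higher and 2 lower. Otherwise 0 to 1 were higher on omitting 1 library, and 1 in DESeq2.

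With the replicate number as a replicate block, 0 features were called higher and 0 lower, 0 members passed, and frp2 was at 1.07 (edgeR adjusted p = 0.126). The labels do not say whether equal numbers pair the cultures. Deviations of same-numbered libraries correlated across features at 0.58, −0.50 and −0.65, so not every library was closest to its own number. Features are not independent replicates, so these values cannot decide whether the cultures were paired.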
